A study of Mus musculus with 12 samples.

Results

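Insulin acts on the liver through a short chain of proteins that ends at the transcription factor FOXO1, and 10 genes of that chain and its targets were followed across the 4 groups of a mouse liver study. They were the insulin receptor Insr, the adaptors Irs1 and Irs2, the kinase regulatory subunit gene Pik3r1, the kinase gene Akt2, the transcription factors Foxo1 and Foxo3, the coactivator Ppargc1a, the secreted binding protein gene Igfbp1 and the pseudokinase gene Trib1. The members were the genes of these 10 symbols in the array annotation, 10 of 12393 genes measured, and all 10 were found. They were represented by 24 of 22626 probe sets: Irs1, Irs2 and Igfbp1 had 1 each and the other 7 genes had several. For a gene with several, the probe set with 1 symbol and the highest mean over all arrays stood for the gene, and the remaining ones are described apart.

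RNA of whole liver from female C57BL/6 mice, 8 to 12 weeks old, was hybridised to 12 Affymetrix Mouse430A arrays, 3 per group. The groups were HDAC6 knockout (HDAC6-/-), HDAC9 knockout (HDAC9-/-), wild type on a high-fat diet with 60% of kcal as fat, and wild type on chow with 25% of kcal as fat. Both knockouts are labelled as whole-animal genotypes with no tissue-specific driver named, the diet of the knockout mice is not given in the sources used here, and neither are the feeding state and the hour at which livers were taken. The labels number the samples of a group from 1 to 3 without saying that each is a separate mouse, so a p-value reflects the spread of these samples, which may be technical. Whole liver is a mixture of cells, in which fewer cells of a type and less RNA per cell cannot be told apart.

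Insulin binds its receptor on the hepatocyte, the receptor phosphorylates the IRS adaptors, and these recruit phosphoinositide 3-kinase, whose regulatory subunit p85-alpha is the product of Pik3r1. The lipid signal it makes activates AKT2, which phosphorylates FOXO proteins and sends them out of the nucleus. With little insulin, nuclear FOXO1 raises genes of glucose output such as G6pc and Pck1, and also Igfbp1 and Irs2, and the coactivator PGC-1-alpha, encoded by Ppargc1a, works with it. Class IIa histone deacetylases, to which HDAC9 belongs, are known to enter the hepatocyte nucleus in fasting and to promote deacetylation of FOXO factors, whereas HDAC6 is a mainly cytoplasmic deacetylase of tubulin and other proteins. Much of this control acts on protein activity and location, whereas the arrays measured transcripts only.

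The promoters of Igfbp1, Irs2 and G6pc are shown because all 3 are textbook targets of FOXO1, and because Igfbp1 and Irs2 had the largest differences among the 10 genes. The RefSeq table for mouse build GRCm38.p6 held 12 promoters for 8 of the 10 genes. Each window is the 250 bases before the start site, 5′ to 3′ on the gene's strand. Capitals mark the heptamer CAAAACA, the core of the insulin response element, on either strand (TGTTTTG on the other). Igfbp1 lies on chromosome 11 (chr11:7197537-7197786, plus strand), Irs2 on chromosome 8 (chr8:11008930-11009179, minus strand) and G6pc on chromosome 11 (chr11:101367466-101367715, plus strand), and the windows are promoter sequence upstream of the first exon.
Igfbp1: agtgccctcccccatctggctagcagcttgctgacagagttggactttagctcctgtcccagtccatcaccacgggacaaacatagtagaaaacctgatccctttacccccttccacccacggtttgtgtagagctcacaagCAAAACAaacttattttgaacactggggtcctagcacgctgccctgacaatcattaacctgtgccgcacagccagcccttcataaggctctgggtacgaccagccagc
Irs2: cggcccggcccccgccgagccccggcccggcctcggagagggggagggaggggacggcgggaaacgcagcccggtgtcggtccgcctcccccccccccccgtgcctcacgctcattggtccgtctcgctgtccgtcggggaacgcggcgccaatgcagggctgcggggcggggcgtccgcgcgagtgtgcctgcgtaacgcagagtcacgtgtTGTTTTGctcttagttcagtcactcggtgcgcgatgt
G6pc: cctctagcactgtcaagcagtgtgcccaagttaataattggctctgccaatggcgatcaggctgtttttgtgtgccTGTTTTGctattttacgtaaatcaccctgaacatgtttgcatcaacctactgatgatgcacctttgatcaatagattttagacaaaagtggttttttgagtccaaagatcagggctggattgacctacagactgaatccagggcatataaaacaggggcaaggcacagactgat
The heptamer began 108 bases before the start of Igfbp1, 37 before Irs2 and 174 before G6pc. It also occurred at 111 and 32 bases before the start of Irs1, so that 3 of the 12 promoters of the 8 genes held it, against 5.56% of all 32851 promoters in the table. The FOXO core GTAAACA, which reads TGTTTAC on the other strand, was in 0 of the 12 and 3.17% of all promoters, and the cAMP response element TGACGTCA, which reads the same on both strands, in 0 of the 12 and 1.55% of all. These are letter matches in 250 bases, and a window without a match says nothing about the factor.

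None of the 10 genes was called in any of the 6 comparisons between groups, at an adjusted p under 0.05 from limma (Benjamini-Hochberg over the 12393 genes of a comparison). Igfbp1 showed the widest separation: its mean was 1.80-fold higher in the HDAC6 knockout, 1.90-fold higher in the HDAC9 knockout and 2.17-fold higher on the high-fat diet than on chow, with adjusted p-values of 0.727, 0.560 and 0.168. The next largest differences were those of Irs2, at 1.64-fold lower on the high-fat diet than in the HDAC6 knockout, and 1.51-fold higher in the HDAC6 knockout than on chow. Among other genes of the pathway, G6pc, Nnmt and Sgk1 rose on the high-fat diet against chow. The G6pc call (adjusted p = 0.0446) was lost under 8 alternatives, and G6pc also lay above chow without overlap in both knockouts, uncalled. All levels are log2 expression after RMA, the authors' normalization, and differences are log2, first group minus second.

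Insr encodes the receptor. On its brighter probe set it read 4.41, 4.86 and 4.90 in the HDAC6 knockout, 4.64, 4.67 and 4.47 in the HDAC9 knockout, 4.69, 4.48 and 4.56 on the high-fat diet, and 4.81, 4.65 and 4.37 on chow. The 4 groups overlapped throughout, and their means lay between 4.57 and 4.72. These readings fall within the range of 31 olfactory receptor genes on the same arrays (median 3.35, highest 5.11), genes that liver is not known to use, so a difference in receptor transcript could be understated. The dimmer Insr probe set, 1421380_at, was 0.29 higher in the HDAC6 knockout than on chow with no overlap, and 0.16 higher in the HDAC9 knockout, also with no overlap, with adjusted p-values of 0.807 and 0.888 over all probe sets.

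Irs1, an adaptor that the receptor phosphorylates, read 9.64, 9.73 and 9.33 in the HDAC6 knockout and 9.47, 9.12 and 9.09 in the HDAC9 knockout. It read 8.96, 9.72 and 9.62 on the high-fat diet and 9.22, 9.60 and 9.37 on chow. High-fat array 1 was the lowest of the 12, and the other 2 arrays of that group were among the highest. The largest difference, HDAC9 knockout minus HDAC6 knockout, was -0.34 (SE 0.182, adjusted p = 1.00 in limma), and the groups overlapped.

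Irs2, the adaptor that insulin represses in liver, read 7.60, 7.24 and 7.46 in the HDAC6 knockout (7.43 ± 0.182, SD, n = 3) and 7.79, 6.94 and 6.86 in the HDAC9 knockout (7.19 ± 0.514). It read 6.41, 6.56 and 7.20 on the high-fat diet (6.72 ± 0.420) and 7.29, 6.47 and 6.76 on chow (6.84 ± 0.417). All 3 arrays of the HDAC6 knockout lay above all 3 of the high-fat group, whereas HDAC9 array 1 and chow array 1 stood above the other arrays of their groups. The high-fat group was 0.71 below the HDAC6 knockout (95% interval -1.27 to -0.15, adjusted p = 0.518), and the HDAC6 knockout was 0.59 above chow (SE 0.260, 0.04 to 1.15, adjusted p = 0.839). The difference of the HDAC9 knockout from chow was 0.35 and that of the high-fat group -0.12, with intervals that include 0. Without HDAC9 array 1 the former was 0.06. In order of the means, HDAC6 knockout, HDAC9 knockout, chow and high-fat diet, each group overlapped its neighbour.

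**Figure D1:**
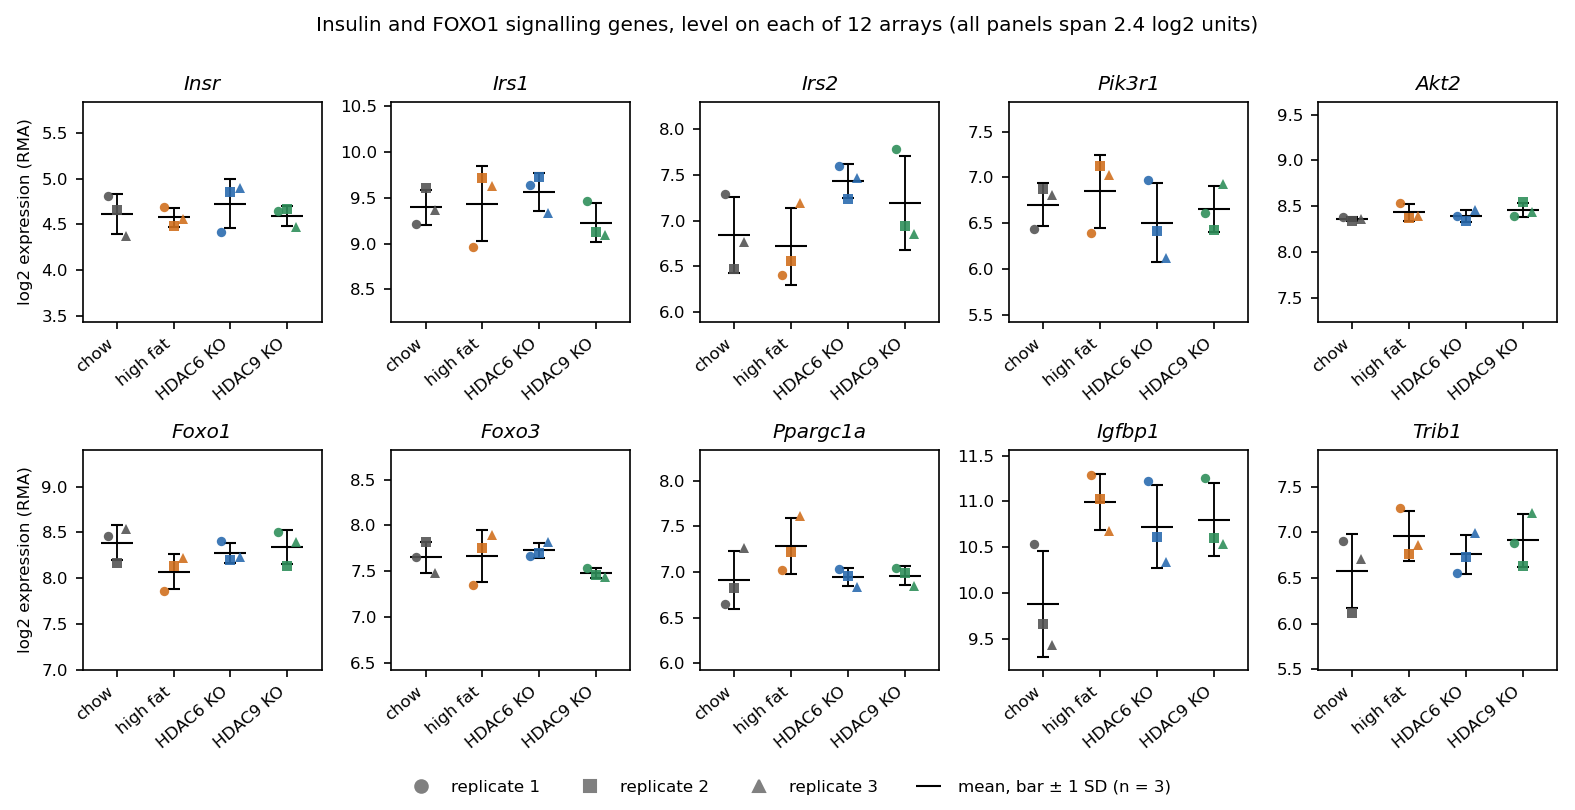
Log2 expression (RMA) of each of the 10 genes on the 12 arrays, 1 panel per gene, with the 4 groups on the horizontal axis. Points are arrays and bars are the mean with SD of 3 arrays; the chow arrays of Igfbp1 (9.43 to 10.53) lie low, and for most other genes the 4 groups overlap.

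Pik3r1 read 6.97, 6.42 and 6.12 in the HDAC6 knockout and 6.61, 6.43 and 6.93 in the HDAC9 knockout. It read 6.39, 7.13 and 7.03 on the high-fat diet and 6.43, 6.87 and 6.80 on chow. Arrays of each group spread as widely as the groups differed, and the means ran from 6.50 to 6.85. Its other probe sets were both higher on the high-fat diet than in the remaining groups: 1451737_at by 0.36 against chow and 0.42 against the HDAC6 knockout, both without overlap (adjusted p = 0.542 and 0.574), and 1425515_at by 0.15, 0.35 and 0.32 against chow, the HDAC6 and the HDAC9 knockout, with overlap only against chow. The 3 probe sets of Pik3r1 thus had the same sign in each comparison of the high-fat group, and none was called.

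Akt2, the main AKT isoform of insulin action in liver, varied least on the probe set that stood for it. It read 8.39, 8.33 and 8.46 in the HDAC6 knockout, 8.39, 8.54 and 8.44 in the HDAC9 knockout, 8.54, 8.37 and 8.39 on the high-fat diet, and 8.38, 8.34 and 8.36 on chow. The chow arrays lay just under all 3 of the HDAC9 knockout, a gap in the means of 0.10 (SE 0.0912, adjusted p = 0.904). Without HDAC9 array 2, which carried pancreatic transcripts as given further on, that difference was 0.05. On this probe set no 95% interval reached beyond 1.22-fold in either direction. The suffix of this probe set marks probes shared with other transcripts, and the second Akt2 probe set, 1421324_a_at, was 0.46, 0.20 and 0.31 above chow in the HDAC6 and HDAC9 knockouts and on the high-fat diet, with chow array 2 at 5.56 below the other 11 arrays (5.99 to 6.60).

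Foxo1 read 7.86, 8.14 and 8.22 on the high-fat diet (8.07 ± 0.189) and 8.46, 8.17 and 8.54 on chow (8.39 ± 0.194). It read 8.41, 8.19 and 8.23 in the HDAC6 knockout and 8.50, 8.13 and 8.40 in the HDAC9 knockout. High-fat array 1 was the lowest, and the high-fat mean was below that of each other group. Against chow the difference was -0.32 (SE 0.134, 95% interval -0.60 to -0.03, adjusted p = 0.519), against the HDAC6 knockout -0.21 and against the HDAC9 knockout -0.27. Without high-fat array 1 the difference from chow was -0.21. The next 2 probe sets of Foxo1 differed in the same direction: 1416981_at read 6.98, 7.24 and 7.33 on the high-fat diet and 7.72, 7.54 and 7.66 on chow, without overlap, a difference of -0.46 (SE 0.120, adjusted p = 0.242 over all probe sets), and 1416982_at differed by -0.31. The dimmest probe set, 1456529_at, between 4.56 and 4.81 on all arrays, differed by -0.05. On 1416981_at the HDAC6 knockout was also below chow without overlap, by -0.27 (adjusted p = 0.814).

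Foxo3, the relative of Foxo1 that shares part of its targets, read 7.67, 7.70 and 7.82 in the HDAC6 knockout (7.73 ± 0.0808) and 7.54, 7.46 and 7.43 in the HDAC9 knockout (7.48 ± 0.0533). It read 7.35, 7.75 and 7.90 on the high-fat diet and 7.65, 7.82 and 7.48 on chow. The knockouts did not overlap each other. The high-fat arrays ran from below to above all 6 knockout arrays, and the chow arrays overlapped each knockout. HDAC9 knockout minus HDAC6 knockout was -0.25 (SE 0.135, 95% interval -0.54 to 0.04, adjusted p = 1.00), and -0.24 without HDAC9 array 2. A second probe set, 1434832_at, gave -0.35 without overlap, and the third, 1450236_at, which read 3.33 to 3.65 in the knockouts, gave 0.15 in the opposite direction, also without overlap.

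Ppargc1a, whose product drives gluconeogenic and mitochondrial genes with FOXO1, read 7.02, 7.22 and 7.61 on the high-fat diet (7.28 ± 0.303) and 6.65, 6.82 and 7.27 on chow (6.91 ± 0.319). It read 7.03, 6.95 and 6.84 in the HDAC6 knockout and 7.04, 6.99 and 6.85 in the HDAC9 knockout. The high-fat group had the highest mean, with array 3 of either wild-type group above its companions, and the knockouts lay close together. The difference from chow was 0.37 (SE 0.166, 95% interval 0.02 to 0.73, adjusted p = 0.557), that from the HDAC6 knockout 0.34 and that from the HDAC9 knockout 0.32. Without high-fat array 3 the difference from chow was 0.21. All 5 probe sets of the gene were higher on the high-fat diet than in each other group. On the 4 dimmer probe sets the high-fat arrays did not overlap those of the HDAC6 knockout (differences of 0.40 to 0.63, adjusted p from 0.328 to 0.654) or of the HDAC9 knockout (0.34 to 0.46, adjusted p from 0.405 to 0.792). The sign of knockout against chow depended on the probe set: the brightest gave 0.03 for HDAC6 and 0.05 for HDAC9, and the other 4 gave -0.46 to -0.16 and -0.28 to -0.10.

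**Figure D2:**
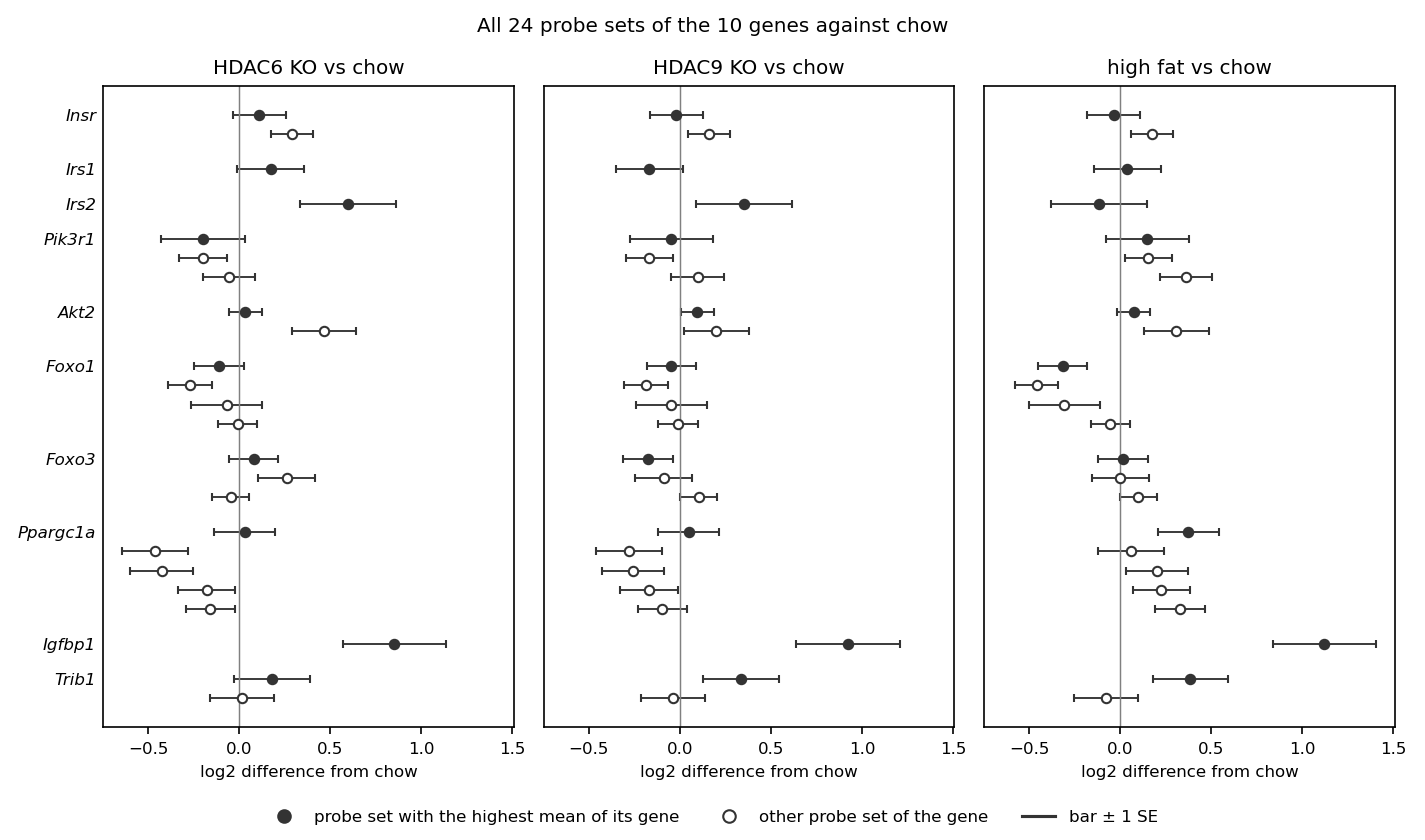
Log2 difference from chow of all 24 probe sets of the 10 genes, with 1 panel per group (the knockouts and the high-fat diet), all measured against the same 3 chow arrays. Foxo1 probe sets lie at or below 0 and Ppargc1a probe sets above 0 in the high-fat panel (-0.46 to -0.05 and 0.06 to 0.37).

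Igfbp1, a liver-secreted binding protein of insulin-like growth factors and a classical transcript repressed by insulin, read 10.53, 9.66 and 9.43 on chow (9.87 ± 0.580, SD, n = 3). It read 11.22, 10.61 and 10.34 in the HDAC6 knockout (10.72 ± 0.451), 11.26, 10.60 and 10.54 in the HDAC9 knockout (10.80 ± 0.399) and 11.28, 11.02 and 10.68 on the high-fat diet (10.99 ± 0.306). Chow arrays 2 and 3 were the lowest of the 12, and chow array 1 reached into the HDAC6 knockout's range but below that of the HDAC9 knockout and the high-fat group. The differences from chow were 0.85 for the HDAC6 knockout (SE 0.281, 95% interval 0.25 to 1.45, adjusted p = 0.727 in limma), 0.92 for the HDAC9 knockout (0.32 to 1.53, adjusted p = 0.560) and 1.12 for the high-fat group (0.52 to 1.72, adjusted p = 0.168). These 3 differences share the chow arrays, so a low chow group moves all of them together. In order of the means, the high-fat group, HDAC9 knockout and HDAC6 knockout differed from each other by 0.07 to 0.27 and overlapped.

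Single arrays moved the Igfbp1 differences. With chow array 1 left out, the high-fat group was 1.45 above chow and the adjusted p was 0.0406, and over all removals of 1 array the difference lay between 0.90 and 1.45. For the HDAC6 knockout against chow the difference lay between 0.60, without HDAC6 array 1, and 1.18, without chow array 1, and for the HDAC9 knockout between 0.69, without HDAC9 array 1, and 1.25, without chow array 1. Without HDAC9 array 2 the HDAC9 knockout was 1.02 above chow (adjusted p = 0.567). Markers of Kupffer cells, the liver's macrophages, were also lowest on chow: the median deviation of 6 of 6 markers from their own means was -0.44 to -0.10 on chow, -0.12 to 0.07 in the HDAC6 knockout, -0.15 to 0.19 in the HDAC9 knockout and 0.01 to 0.39 on the high-fat diet, and their summed level was 11.7 to 12.1, 12.0 to 12.2, 12.0 to 12.5 and 12.1 to 12.5 in log2. Hepatocyte markers, 6 of 7 measured, had median deviations of only -0.04 to 0.08 over all arrays, with albumin (Alb) at 14.16 to 14.25. The part of the Kupffer markers in the Igfbp1 result, and in that of G6pc given further on, was not tested.

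Trib1, a pseudokinase known for directing C/EBP-alpha to degradation and for lowering hepatic lipid synthesis, read 7.27, 6.76 and 6.86 on the high-fat diet and 6.90, 6.12 and 6.71 on chow. It read 6.55, 6.73 and 6.99 in the HDAC6 knockout and 6.89, 6.64 and 7.21 in the HDAC9 knockout. Chow array 2 was the lowest of the 12, and the groups overlapped. The differences from chow were 0.38 for the high-fat group (SE 0.205, adjusted p = 0.653), 0.33 for the HDAC9 knockout and 0.18 for the HDAC6 knockout. Without chow array 2 they were 0.16, 0.11 and -0.05. The second Trib1 probe set, 1424881_at, dim at 3.75 to 4.51, gave -0.08, -0.04 and 0.02.

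**Figure D3:**
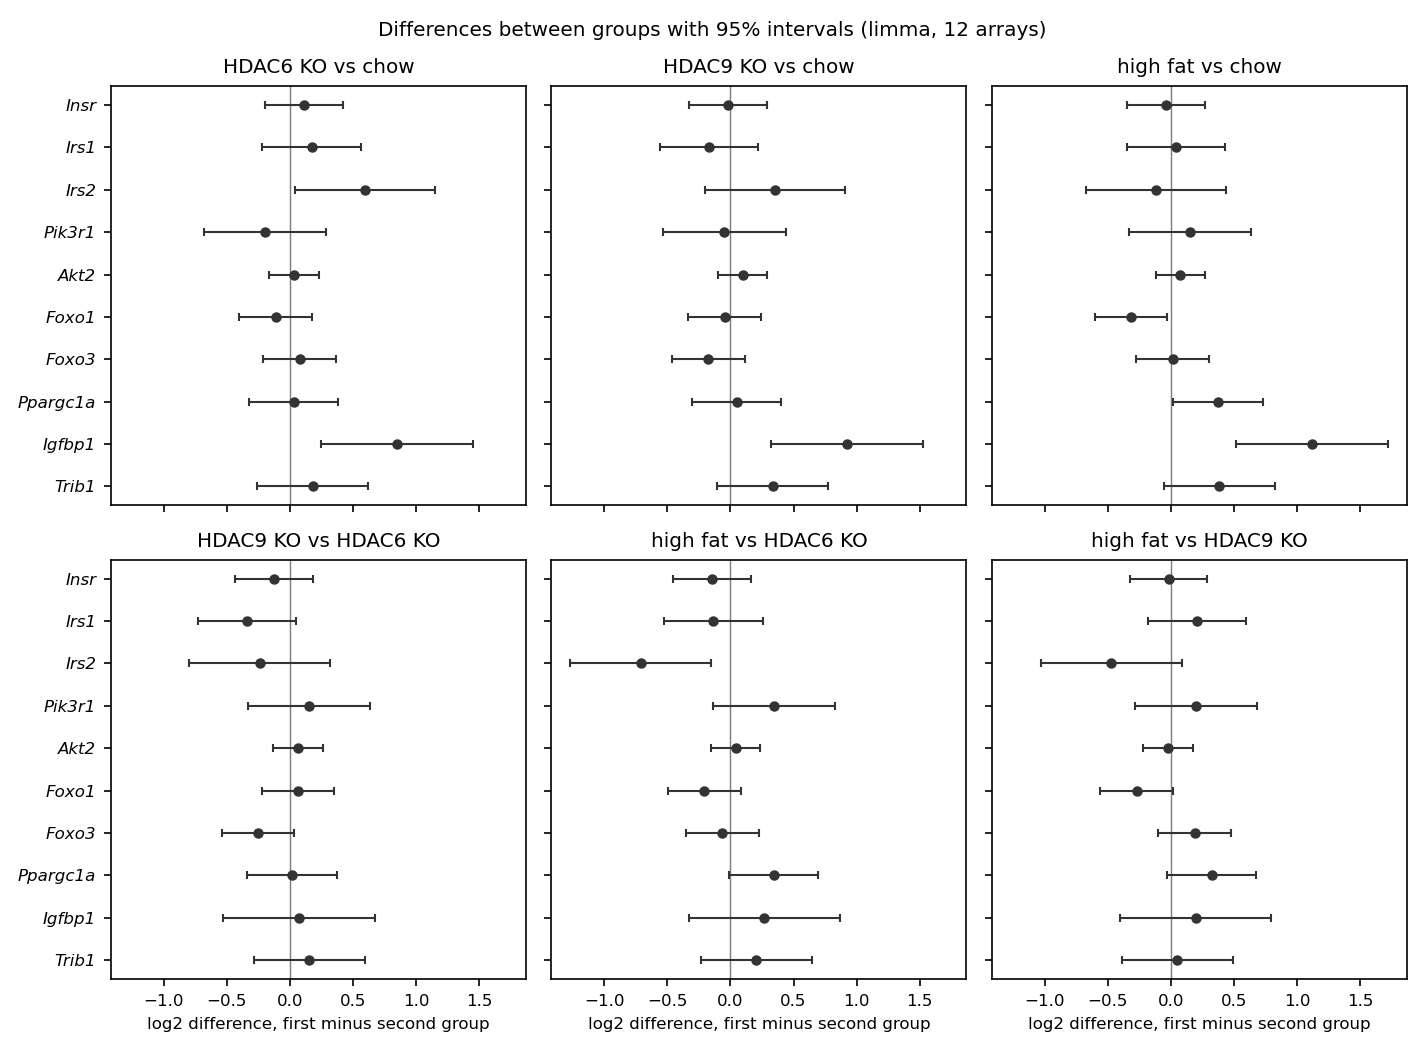
Log2 difference between groups for each of the 10 genes in the 6 comparisons, with 95% intervals from limma over 12 arrays. Intervals for Igfbp1 lie above 0 in the 3 chow comparisons (0.25 to 1.45, 0.32 to 1.53 and 0.52 to 1.72), and Akt2 has the narrowest.

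The counts for the 10 genes were read against those of all genes. For the HDAC6 knockout against chow, 0 of 10 were called where 0.0161% of all genes were, 2 had an unadjusted p under 0.05 (Irs2 and Igfbp1, against 5.77% of all genes), and 0 had groups that did not overlap, against 10.1% of all genes. For the HDAC9 knockout against chow, 0 were called (0.0968% of all genes), 1 had an unadjusted p under 0.05 (Igfbp1, against 6.08%), and 2 did not overlap (Akt2 and Igfbp1, both higher), against 12.6% of all genes. For the high-fat diet against chow, 0 were called (0.290% of all genes), 3 had an unadjusted p under 0.05 (Foxo1, Ppargc1a and Igfbp1, against 8.48%), and Igfbp1 alone did not overlap, against 14.7%. The counts of 0 to 2 in 10 without overlap lie near their background shares. The counts of 2 and 3 in 10 with an unadjusted p under 0.05 lie above theirs; these comparisons share the chow arrays, and Igfbp1 is in each count, so nothing particular to the 10 genes was read from them.

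HDAC9 against HDAC6 knockout had 0 of 10 called (0.00807% of all genes), 0 with an unadjusted p under 0.05 (3.80% of all genes) and 1 without overlap (Foxo3, against 8.46%). The high-fat diet against the HDAC6 knockout had 0 called (0.145%), 1 with an unadjusted p under 0.05 (Irs2, against 7.27%) and 1 without overlap (also Irs2, against 13.1%). The high-fat diet against the HDAC9 knockout had 0 called (0.436%), 0 with an unadjusted p under 0.05 (8.10%) and 0 without overlap (against 13.8%). With every probe set tested on its own, 0 of the 24 were called in each of the 6 comparisons, where the share of all probe sets called was 0.00442% (HDAC6 knockout against chow), 0.00884% (HDAC9 knockout against chow), 0.190% (high-fat diet against chow), 0.00442% (HDAC9 against HDAC6 knockout), 0.128% and 0.230% (high-fat diet against the HDAC6 and HDAC9 knockouts).

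The 10 genes' differences were in size somewhat above those of the genome: their median absolute difference was between 0.13 and 0.21 in the 6 comparisons, against 0.08 to 0.10 for all genes. The genome figure includes dim genes, whose differences RMA compresses, whereas all of the 10 but Insr lay above the median level. The part of expression level in this excess was not tested. The excess was also there between the knockouts (0.14 against 0.08), so nothing particular to the 10 genes was read from it. The 95% intervals of the probe set that stood for each gene reached at most 1.22-fold for Akt2, 1.37-fold for Insr, 1.45-fold for Foxo3, 1.52-fold for Foxo1, 1.65-fold for Ppargc1a, 1.66-fold for Irs1, 1.77-fold for Trib1, 1.78-fold for Pik3r1, 2.41-fold for Irs2 and 3.30-fold for Igfbp1. Over all probe sets of a gene they reached further for several: 1.80-fold for Akt2, 1.45-fold for Insr, 1.60-fold for Foxo3, 1.65-fold for Foxo1 and 2.00-fold for Ppargc1a. For Insr, in the upper part of the olfactory receptor range, such an interval is no bound on the transcript.

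Another 121 genes of the pathway, of 138 listed, were on the arrays. Among the 15 receptor-proximal genes (such as Grb2 and Gab1), the 20 of the PI3K, PDK1, AKT and mTOR step, the 22 negative regulators and the 10 of the insulin-like growth factor axis, 0 were called in any comparison. Of 25 FOXO coregulators and 29 targets of FOXO or insulin, those called were all higher on the high-fat diet: G6pc, Nnmt and Sgk1 against chow (3 of 121, or 2.48%, against 0.290% of all genes), Cebpb against the HDAC6 knockout (1 of 121, or 0.826%, against 0.145%) and Sgk1 and Cebpb against the HDAC9 knockout (2 of 121, or 1.65%, against 0.436%). In the other 3 comparisons 0 of the 121 were called. The lists were chosen with earlier results of these data known, so nothing was read from these shares. The list medians, in which rises and falls can cancel, were close to those of all genes. For the high-fat diet against chow they ran from -0.08 for the growth factor axis to 0.05 for the coregulators, with -0.01 for all genes. Their median absolute differences were 0.19 for the targets, 0.16 for the coregulators and 0.05 to 0.09 for other lists, against 0.10 for all genes. There 10 of 29 targets, 4 of 25 coregulators and 17 of the 121 had groups without overlap, against 14.7% of all genes. For the high-fat diet against the HDAC9 knockout it was 8 of 29, 10 of 25 and 23 of the 121, against 13.8%. Nothing was read from these counts either.

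G6pc, which encodes the catalytic subunit of glucose-6-phosphatase, the last step of hepatic glucose output, read 10.69, 10.71 and 10.94 on chow and 11.50, 12.10 and 11.48 on the high-fat diet. It read 11.77, 11.49 and 11.30 in the HDAC6 knockout and 11.74, 11.42 and 11.25 in the HDAC9 knockout. All 9 arrays of these 3 groups lay above the 3 chow arrays. On the high-fat diet it rose 1.88-fold (0.91, SE 0.170, adjusted p = 0.0446), while the HDAC6 knockout was 0.74 above chow (adjusted p = 0.325) and the HDAC9 knockout 0.69 (adjusted p = 0.311). The call was close to the threshold: it was lost, at an adjusted p of 0.0553 to 0.163, when high-fat array 1 or 2 or any 1 of the chow arrays was left out, and also without a variance trend (0.0534), with only the 2 groups fitted (0.0591) and with the mean of all probe sets of each gene (0.0614). As with Igfbp1, the 3 differences share the chow arrays, in which the level was lowest.

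Sgk1, a kinase that phosphorylates FOXO proteins as AKT does, read 9.0, 9.21 and 9.32 on the high-fat diet against 8.33, 8.46 and 8.44 on chow, 8.73, 8.65 and 8.49 in the HDAC6 knockout and 8.34, 8.41 and 8.37 in the HDAC9 knockout. The high-fat arrays stood above the other 9. It rose 1.70-fold against chow (0.77, SE 0.104, adjusted p = 0.00487) and by 0.80 against the HDAC9 knockout (adjusted p = 0.00322), and was 0.56 above the HDAC6 knockout (adjusted p = 0.0563). Nnmt, the nicotinamide methyltransferase, read 11.09, 10.58 and 10.71 on the high-fat diet and 9.78, 9.48 and 9.69 on chow, a rise of 2.21-fold (1.15, SE 0.159, adjusted p = 0.00558), with the knockout means in between (9.97 and 10.30). Cebpb, a transcription factor of gluconeogenic genes, read 10.89, 10.99 and 11.09 on the high-fat diet and 10.10 to 10.61 on the other 9 arrays. It rose by 0.66 against the HDAC6 knockout (SE 0.109, adjusted p = 0.0245) and by 0.60 against the HDAC9 knockout (adjusted p = 0.0309), and was 0.49 above chow (adjusted p = 0.109). Both Cebpb calls were lost when high-fat array 2 or 3 was left out, at adjusted p-values of 0.0954 to 0.149, and also without HDAC6 array 1 or 2 for the first and without HDAC9 array 2 or 3 or high-fat array 1 for the second (0.0528 to 0.123). They were also lost with the mean of all Cebpb probe sets in place of the brightest (0.400 and 0.287), and the second with only the 2 groups fitted (0.0560).

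**Figure D4:**
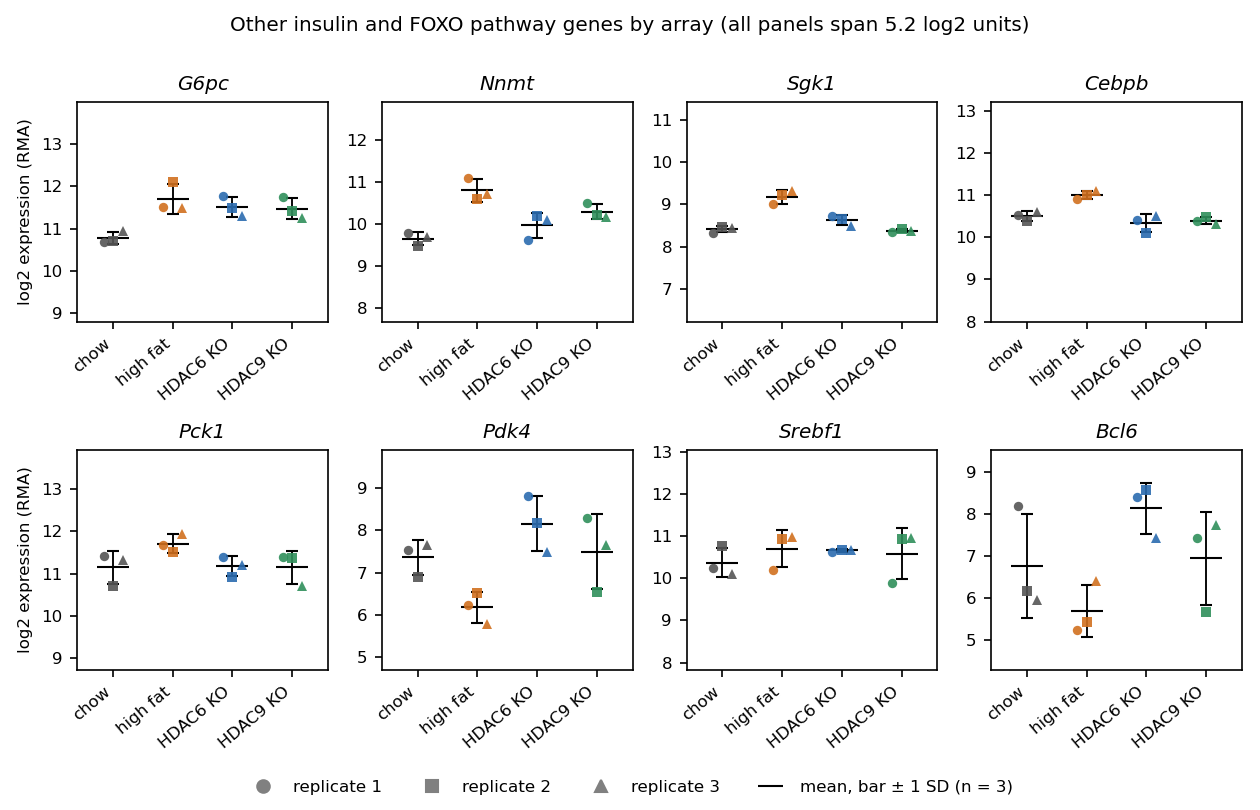
Log2 expression (RMA) of pathway genes outside the 10 on the 12 arrays by group; points are arrays and bars are the mean with SD of 3 arrays. G6pc is lowest on chow (10.69 to 10.94), and Sgk1 and Cebpb are highest on the high-fat diet (9.0 to 9.32 and 10.89 to 11.09).

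Pck1, the gluconeogenic carboxykinase, named after its values were seen, read 11.69, 11.50 and 11.94 on the high-fat diet and 10.70 to 11.41 on the other 9 arrays. It was thus also highest on the high-fat diet, but uncalled: 0.56 above chow (adjusted p = 0.431), 0.53 above the HDAC6 knockout (adjusted p = 0.530) and 0.56 above the HDAC9 knockout (adjusted p = 0.438). Pdk4, the kinase that shuts down pyruvate dehydrogenase in fasting, lay the other way. It read 6.22, 6.52 and 5.79 on the high-fat diet, below the other 9 arrays (6.54 to 8.81). Its differences were -1.99 from the HDAC6 knockout (adjusted p = 0.0572), -1.32 from the HDAC9 knockout (adjusted p = 0.231) and -1.18 from chow (adjusted p = 0.344). Bcl6 on the high-fat diet differed by -2.43 from the HDAC6 knockout without overlap (adjusted p = 0.146). It differed by -1.07 from chow and -1.25 from the HDAC9 knockout, with overlap. Mt2 differed by -1.83 from chow and -2.03 from the HDAC9 knockout without overlap (adjusted p = 0.269 and 0.161), and by -0.39 from the HDAC6 knockout with overlap. Mt1 on the high-fat diet differed by -1.15 from chow and -1.05 from the HDAC9 knockout without overlap (adjusted p = 0.314 and 0.361). From the HDAC6 knockout it differed by -0.29 with overlap. The HDAC6 knockout itself differed from chow by -0.85 for Mt1 without overlap and -1.44 for Mt2 with overlap (adjusted p = 0.836 and 0.760). Foxa2, a pioneer factor at many hepatic promoters, was 0.65 lower on the high-fat diet than on chow (adjusted p = 0.0807), and Socs2, an inhibitor of growth hormone signalling, 1.07 lower (adjusted p = 0.314). Socs2 also differed from chow by -0.85 in the HDAC6 knockout, without overlap, and by -0.73 in the HDAC9 knockout, with overlap (adjusted p = 0.794 and 0.793). The high-fat group differed from the HDAC6 and HDAC9 knockouts by -0.22 and -0.34 for Socs2, with overlap, and all its chow differences share the chow arrays. Angptl8, a lipoprotein lipase regulator that insulin raises, was 1.08 lower in the HDAC6 knockout than on chow without overlap (adjusted p = 0.727).

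The array medians of all probe sets lay between 5.78 and 5.86, and any 2 arrays correlated at 0.987 or more. Hdac6 was 6.28 ± 0.198 in its knockout and 7.91 ± 0.0598 on chow, a fall of 1.63 (adjusted p = 6.79e-05), whereas Hdac9 read 4.04 to 4.53 on all arrays, inside the olfactory receptor range, and could not check the HDAC9 label. HDAC9 array 2 stood apart: its median deviation for 11 of 15 exocrine pancreas markers was 3.72. HDAC9 array 1 came next at 0.33, and the remaining arrays lay between -0.64 and -0.19. The marker Ctrb1 read 9.29 on HDAC9 array 2, 5.97 on HDAC9 array 1 and 4.40 to 4.98 on the remaining arrays. The islet markers of HDAC9 array 2 had a median deviation of -0.01, and Ins2 was 5.21 to 5.78 over all arrays. Immediate-early genes ran highest in the high-fat group (median deviation of 14 of 14 genes 0.12 to 0.34, against -0.42 to -0.10 on chow, -0.22 to -0.07 in the HDAC6 knockout and -0.09 to 0.13 in the HDAC9 knockout). There HDAC9 array 3 lay just above high-fat array 2. The high-fat arrays also had the lowest genes of the clock's positive limb (5 of 5 genes, -1.25 to -0.68, against -0.31 to 0.72 on the other 9 arrays). Sgk1, Cebpb, Nnmt, Pck1, Pdk4 and, on 4 probe sets, Ppargc1a separated the high-fat arrays from knockout arrays as well, and the part of these gene groups in those differences, or in that of Igfbp1, was not tested.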

How the data were processed

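The deposited values are log2 expression per probe set for 12 arrays, made by the authors with RMA (robust multi-array average, which corrects background, quantile-normalizes and summarises probes) per the submitters' processing notes. The software and chip definition are not given in the sources used here, and no further normalization was applied. RMA compresses differences of dim probe sets. Per the labels' protocols, 100 ng of total RNA was used for each amplified, biotin-labelled target. The number of arrays, 3 per group, limits the precision: the median standard error of a difference was 0.124, and an exact rank test of 3 against 3 cannot go below p = 0.1.

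A platform annotation gave 20380 probe sets 1 symbol, 691 several and 1555 none. Genes were tested on those with 1 symbol, 12393 genes in all, of which 12369 matched the RefSeq gene table by Entrez ID. Groups were taken from the sample labels. The 6 comparisons were fitted in R 4.3.3 with limma 3.58.1 on all 12 arrays, with 4 group means, a mean-variance trend and 14.3 moderated degrees of freedom. Tests were two-sided, adjusted by Benjamini-Hochberg over all genes, and called at an adjusted p under 0.05. Groups were said not to overlap where all 3 arrays of either lay above all 3 of the other. A list value per array is the median, over its genes, of the deviation from each gene's mean over the 12 arrays. The procedure was tested on simulated data. Figures used Python 3.11.15, pandas 2.3.3 and matplotlib 3.10.9.

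The 10 genes are always named. Other pathway genes are named where called or among the 4 of smallest p in their list and comparison, except Pck1. The genes and lists were chosen with earlier results of these data known. Same-numbered samples' deviations correlated between -0.152 and 0.148, and in 0 of 6 comparisons did every pair exceed 0.1, so the numbers were not taken as pairs. Alternatives are given in the closing section.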

Additional observations from a re-analysis of the deposited data

How the results depend on the processing

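Of the 60 differences between groups of the 10 genes, 57 were uncalled under every alternative run, and the other 3 were those of Igfbp1 against chow. With a replicate block, which assumes that equal sample numbers pair the arrays, Igfbp1 was called in all 3 chow comparisons, at adjusted p-values in limma of 0.0242 for the HDAC6 knockout, 0.0215 for the HDAC9 knockout and 0.000864 for the high-fat diet, so that 1 of the 10 genes, and 1 of the 24 probe sets, was called in each of them. Under the block 3, 17 and 33 of all 12393 genes were called in these comparisons, in the same order. The highest Igfbp1 array was number 1 and the lowest was number 3 in all 4 groups. The numbers share no stated litter, batch or day and did not meet the rule for pairs, a correlation above 0.1 in every same-numbered pair. Only in the HDAC6 knockout against chow did all 6 arrays correlate best with their own number. There same-numbered pairs correlated at 0.07 to 0.13 and the others at 0.01 or less. Leaving out each array in turn called 0 or 1 of the 10 genes for the high-fat diet against chow, and 0 in the other 5 comparisons. Signs changed under at least 1 alternative for 23 of the 60 differences, the largest of them 0.18 in size, which was Trib1 in the HDAC6 knockout against chow.

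The counts over all genes, the background to those of the 10, moved more, and the cause was not tested. For the HDAC6 knockout against chow, 2 genes were called (1 higher, 1 lower), 1 to 4 with an array left out, and 1 (0 higher) at an adjusted p under 0.01, with only the 2 groups fitted, with quantile normalization, with median centring or without the dimmest 50% of genes. For the HDAC9 knockout against chow, 12 were called (5 higher, 7 lower), 0 to 13 with an array left out, 7 with the mean of all probe sets, 5 with quantile normalization (4 higher, 1 lower), 5 without the dimmest 25%, 3 without a variance trend, and 0 at an adjusted p under 0.01, with 2 groups or without the dimmest 50%. For the high-fat diet against chow, 36 became 22 with the mean of all probe sets, 12 at an adjusted p under 0.01 and 13 to 33 with an array left out. HDAC9 against HDAC6 knockout went from 1 to 2 with 2 groups, the replicate block or the mean of probe sets, and from 1 to 4 with an array left out. The high-fat diet against the HDAC6 knockout went from 18 (11 higher, 7 lower) to 56 with 2 groups, 31 without shared-probe sets, 30 with median centring (15 higher, 15 lower), 11 at an adjusted p under 0.01 and 8 to 24 with an array left out. The high-fat diet against the HDAC9 knockout went from 54 to 34 without the dimmest 50%, 29 with the mean of probe sets, 7 at an adjusted p under 0.01 and 9 to 97 with an array left out. Probe sets near the background, as for Insr and Hdac9, limit what a difference can show.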
